A study of Mus musculus with 12 samples.

Results

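The solute carrier genes are the transporters whose symbols follow the pattern Slc, family number, a and member number. On these arrays 322 annotated genes matched the pattern after Slc45a2, Slc24a5, Slc7a11, Slc3a2 and Slc2a1 were set aside. A gene was kept where at least 1 of its probes had a detection p-value under 0.05 on at least 2 of the 12 arrays, and 199 genes of 44 families, with 295 such probes, were kept. They are part of 11470 genes that passed the same filter. The symbol pattern also took in 5 genes that encode no transporter, among them the scaffold proteins Slc9a3r1 and Slc9a3r2.

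B16 is an established mouse melanoma line that makes melanin in culture. RNA of B16 cells, with no genetic change or drug named, was hybridised to 12 Illumina mouse bead arrays, 2 for each of days 0, 4, 8, 12, 16 and 20 of a culture cycle in medium with fetal calf serum. The arrays of a day, set 1 and set 2, come from successive cycles according to the series. The label is pigmented on days 4, 8 and 12 and depigmented on days 0, 16 and 20. By the protocol, a sparse culture (100 cells per cm2) gave the RNA of days 4, 8 and 12, and its cells, plated densely on day 12 (10000 cells per cm2), gave that of days 16 and 20. Time, plating and pigment therefore cannot be told apart, and a separate density label of each array departs from that protocol (day 16 arrays are marked 100 cells per cm2, for example). The label also differs within day 0 and within day 12, where set 1 is marked 10000 and set 2 100 cells per cm2. The p-values measure the spread between the 2 cycles of 1 cell line. On days 0 and 12 that spread cannot be told apart from a difference in density label.

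Values below are normalized log2 intensities, given as set 1 and then set 2, and changes are differences of day means on that scale with their standard error (SE, n = 2 arrays per day) and the Benjamini-Hochberg adjusted p of limma. A gene is called where that p is under 0.05, and each gene is read from its brightest detected probe. Where a gene was detected on no array of a day, its change is given only as a bound (at least N-fold), taken between the mean of the detected day and, for the other day, the higher of the gene's own signal and the lowest signal among detected probes of each array. Counts of at least 2-fold changes use the fitted changes, also for such genes. In bulk RNA, fewer cells of a kind and less RNA per cell cannot be told apart. Levels of different probes or genes are not compared. Mean signals of the arrays lay between 269.9 and 440.8, and 40.9% to 43.7% of the 45281 probes were detected on an array. Of 8 melanocyte markers, 8 were measured and 7 were detected on all 12 arrays. Of the markers of other cell types, Ptprc and Cd3e of leukocytes, Krt5, Krt14 and Krt10 of keratinocytes, Cdh5 and Kdr of endothelium, and Col1a2 and Dcn of fibroblasts had probes detected on 0 of the 12 arrays. Weak signals were detected for Fcer1g on 9 arrays and Lyz2 on 10 (leukocytes), Col1a1 on 6, Pdgfra on 8 and Pdgfrb on 7 (fibroblasts), Krt1 on 6 (keratinocytes), and Vwf on 7 and Pecam1 on 1 (endothelium). Those tested reached at most 6.73 (Pdgfra), and their part in the results was not tested.

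Solute carriers move amino acids, sugars, ions, metals, nucleotides, vitamins and lipids across the plasma membrane and the membranes of mitochondria, lysosomes, the Golgi apparatus and vesicles. Families are numbered mostly by sequence, and a family number often goes with a class of substrate. In melanocytes, transporters of the melanosome membrane set the pH and ion content in which tyrosinase works, and tyrosinase needs copper. Tumour cells depend on transporters for glutamine, serine, glucose and iron, and several amino acid transporter genes are known targets of ATF4, the transcription factor of the amino acid response.

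Most of the 199 genes changed during the cycle, and about as often as other genes. Over the 6 days, 161 of the 199 genes were called (80.9%), against 84.7% of all genes tested. The range of the 6 day means had a median of 1.03 in the solute carrier genes and 0.99 in all genes. It was at least 1, a 2-fold span, in 103 of the 199 genes (51.8%, against 49.4% of all genes) and at least 2 in 24 of them (12.1%, against 13.1%). Among the 161 called genes the lowest mean fell on day 20 in 55 (34.2%, against 35.1% of all called genes) and the highest mean on day 20 in 54 (33.5%, against 28.7%). Among genes detected on all 12 arrays the widest spans belonged to Slc38a1, Slc25a10 and Slc11a1, each described with its group.

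**Figure D1:**
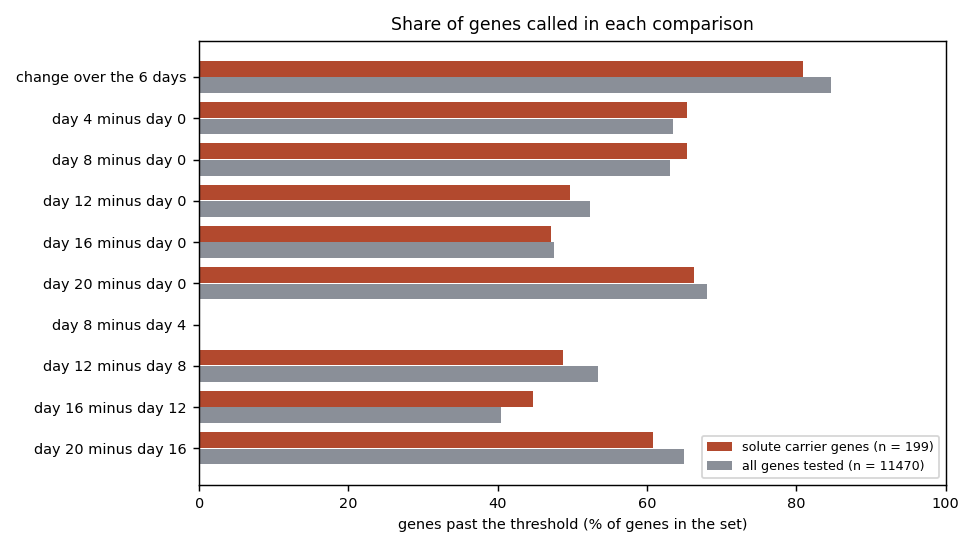
Percent of genes called in each comparison among the 199 solute carrier genes (red) and the 11470 genes tested (grey). The bars of a pair lie close together in every comparison, and day 8 minus day 4 has no bar in either set.

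From day 0, labelled depigmented, to day 8, labelled pigmented, 130 of the 199 genes were called (63.1% of all genes tested, the background), 64 higher (background 29.3%) and 66 lower (background 33.9%). At least 2-fold changes were called in 23 genes that rose and 22 that fell (background of both directions 20.1%). The largest rises were those of Slc35a1, Slc38a1, Slc24a4, Slc25a38, Slc35a3 and Slc44a3. The largest falls were those of Slc17a7, Slc15a3, Slc9a3r2, Slc16a3, Slc41a3 and Slc46a3. Day 4 against day 0 gave similar numbers: 130 genes called (background 63.5%), 68 higher (29.5%) and 62 lower (34%), and 24 higher and 23 lower by at least 2-fold (both directions 20.1%). Between days 4 and 8, limma called 0 of the 199 genes (background 0%), with 10 at an unadjusted p under 0.05, and the arrays of the 2 days correlated with each other across genes at 0.9963 to 0.9967, as closely as the arrays of 1 day (0.9953 to 0.9965). The highest correlation between arrays of any other 2 days was 0.975.

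From day 8 to day 12, both labelled pigmented, 97 genes were called (background 53.4%), 42 higher (27.2%) and 55 lower (26.2%), with 12 higher and 8 lower by at least 2-fold (both directions 10%). Slc40a1, Slc5a10, Slc9a3r2, Slc25a42, Slc41a3 and Slc22a21 led the rises, and Slc4a2, Slc25a38, Slc36a1, Slc66a1, Slc20a1 and Slc43a1 led the falls. From day 12 to day 16, across the second plating, 89 genes were called (background 40.4%), 40 higher (20.7%) and 49 lower (19.7%), with 5 higher and 11 lower by at least 2-fold (both directions 4.52%). Slc4a2, Slc31a2, Slc15a3, Slc15a2, Slc2a6 and Slc9a3r1 rose most, and Slc5a10, Slc12a8, Slc40a1, Slc19a2, Slc4a4 and Slc11a1 fell most. With median centring in place of quantile normalization this last count was 53.

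From day 16 to day 20, both labelled depigmented, 121 genes were called (background 65%), 67 higher (29.9%) and 54 lower (35%), with 30 higher and 16 lower by at least 2-fold (both directions 22.8%). Slc11a1, Slc25a25, Slc25a42, Slc17a7, Slc38a2 and Slc47a1 led the rises, and Slc25a10, Slc4a2, Slc11a2, Slc25a45, Slc44a3 and Slc35a2 led the falls. The rise of Slc38a2 was not shared by a second probe, as described below. The place of Slc47a1 rests on a day 16 value below detection. Its bound, given below, is smaller than the rises of Slc6a8 and Slc25a33. The split of directions rested on the normalization: median centring moved the median change of all genes from -0.05 to -0.19 and gave 48 genes higher and 62 lower. Day 20 was also far from day 0, with 132 genes called (background 68%), 62 higher (29.3%) and 70 lower (38.7%), or 42 higher and 79 lower with median centring. Changes of at least 2-fold were called in 28 genes that were higher and 23 that were lower (both directions 26.2%). Against day 0, fewer genes were called on days 12 and 16. Day 12 had 99 genes called (background 52.3%), 43 higher (22.8%) and 56 lower (29.5%), with 10 higher and 7 lower by at least 2-fold (both directions 9.11%). Day 16 had 94 (background 47.6%), 32 higher (20.9%) and 62 lower (26.6%), with 6 higher and 8 lower by at least 2-fold (both directions 6.63%). These comparisons share the day 0 arrays.

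**Figure D2:**
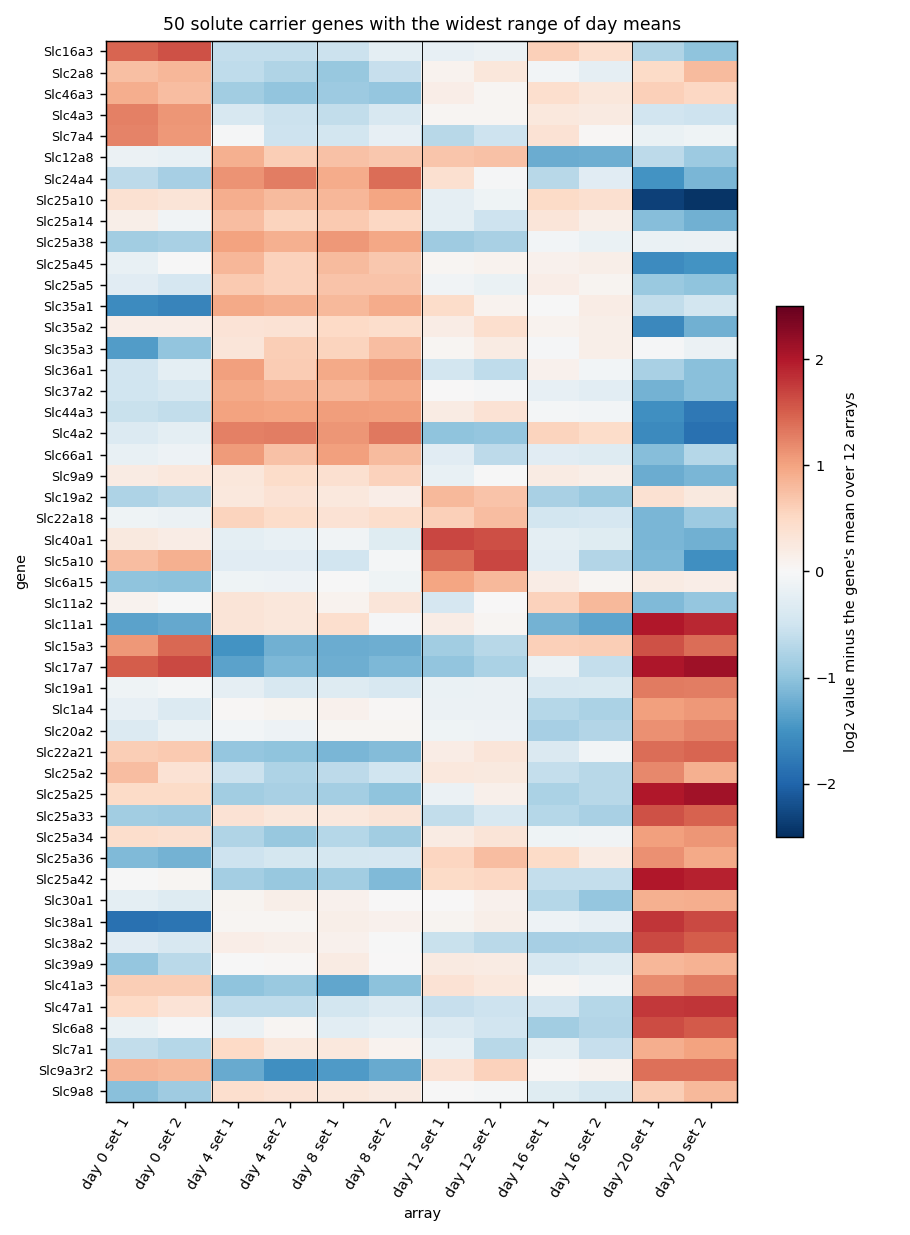
Log2 value of each array minus the gene's mean over the 12 arrays, for the 50 solute carrier genes with the widest range of day means, ordered by the day of the highest mean (days 4 and 8 counted as 1) and then by name. Columns are the 12 arrays with lines between days. Columns of days 4 and 8 look alike, Slc40a1 and Slc5a10 are highest on day 12, and Slc25a10 is lowest on day 20.

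The neutral amino acid transporters Slc38a1, Slc38a2, Slc1a4 and Slc1a5 had their highest means on day 20 on their brightest probes, but a second probe of Slc38a2 did not. Slc38a1, a carrier of glutamine and other neutral amino acids, had values of 7.26 and 7.31 on day 0, 9.18 and 9.19 on day 4, 9.27 and 9.25 on day 8, 9.21 and 9.29 on day 12, 9.01 and 8.94 on day 16, and 10.93 and 10.79 on day 20. Both day 0 arrays lay below all others and both day 20 arrays above all others, with days 4 to 16 on a plateau between them. Slc38a1 rose by 1.97 ± 0.08 (SE) from day 0 to day 8 (adjusted p = 1.35e-14) and rose by 1.89 ± 0.08 (SE) from day 16 to day 20 (adjusted p = 1.87e-14), which is 3.7-fold. Another 2 of its probes gave day 20 rises of 2.22 and 1.81, while a dim probe detected on 7 arrays gave 0.06.

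Slc38a2, a relative of Slc38a1 known to be induced when amino acids run short, had values of 10.37 and 10.25 on day 0, 10.82 and 10.78 on day 4, 10.77 and 10.65 on day 8, 10.10 and 9.98 on day 12, 9.84 and 9.84 on day 16, and 12.30 and 12.18 on day 20. The day 20 arrays stood apart from the other 10, and the change from day 16 was 2.40 ± 0.08 (SE; adjusted p = 9.48e-17). A second probe of the gene, nearly as bright, read day means of 10.23, 11.22, 11.13, 9.66, 10.41 and 10.33 and showed no rise on day 20 (-0.08). These 2 probes therefore disagree, and the day 20 rise of Slc38a2 is not settled. Between days 12 and 16 the 2 probes moved in opposite directions (-0.20 and 0.76), whereas both were higher on day 8 than on day 0.

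Slc1a4 and Slc1a5, exchangers of serine, alanine and glutamine, were both highest on day 20. For Slc1a4 the values were 7.88 and 7.74 on day 0, 8.12 and 8.15 on day 4, 8.19 and 8.12 on day 8, 7.94 and 7.95 on day 12, 7.38 and 7.29 on day 16, and 9.11 and 9.16 on day 20. It was lowest on day 16 and highest on day 20, and rose by 1.80 ± 0.10 (SE) between them (adjusted p = 7.48e-13). Slc1a5 was near background on day 0, with 4.96 and 4.72 on day 16 and 6.03 and 6.32 on day 20, and rose by 1.33. Its other 2 detected probes gave rises of 1.57 and 1.09. Slc7a1, the carrier of arginine and lysine, was also dim (detected on 8 arrays) and rose by 1.37 from 4.96 and 4.63 to 6.11 and 6.22.

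The amino acid transporters known as ATF4 targets numbered 10 in the list used, of which 9 were measured and Slc7a5 was not annotated on these arrays. From day 16 to day 20, 6 of the 9 were higher (Slc38a2, Slc38a1, Slc1a4, Slc7a1, Slc6a9 and Slc1a5), Slc38a7 and Slc43a1 were lower, and Slc7a3, not detected on either day, was not called (change 0.08). Slc38a2 is counted here and below by its brightest probe, and its rise is not settled, as given above. Of all genes, 29.9% were higher and 35% lower in this step. The list's median change was 1.35, beside -0.05 for all genes, and 6 of its 9 genes rose at least 2-fold. From day 0 to day 8, 7 of the 9 were higher and 0 were lower, beside 29.3% and 33.9% of all genes (median 0.40, beside -0.04 for all genes). From day 12 to day 16 the median was -0.20, or -0.08 counting undetected genes at their bound. In that step 2 genes were higher and 4 lower, beside 20.7% and 19.7% of all genes. Slc43a1, a carrier of branched-chain amino acids, had day means of 5.50, 6.24, 6.23, 4.99, 5.82 and 4.96. It was lowest on days 12 and 20, as was Slc38a7, described below.

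Of the 26 genes of the amino acid families, 15 were called from day 16 to day 20 (57.7%, beside 65% of all genes), 8 higher and 7 lower. The lysosomal carriers Slc36a1, Slc66a1 and Slc38a7 were among the 7. Slc36a1, the proton-coupled amino acid exporter of lysosomes, had means of 6.47 on day 8, 4.91 on day 12 and 5.48 on day 16, and on day 20, where it was not detected, it was at least 1.54-fold lower than on day 16. Slc66a1, which exports cationic amino acids from lysosomes, rose by 1.06 from day 0 to day 8, fell by 1.37 by day 12 and fell by 0.59 from day 16 to day 20. Slc38a7, a lysosomal glutamine carrier, had day means of 8.41, 8.66, 8.73, 7.98, 8.27 and 7.59, lowest on day 20. Slc38a9, the lysosomal arginine sensor of mTORC1, ran the other way at the start: it fell by 1.05 from day 0 to day 8 and rose by 0.43 from day 16 to day 20, although a dim second probe moved by 0.52 in the first of these.

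Among light chains of the amino acid exchangers, Slc7a6 rose by 0.91 to day 20 and Slc7a7 rose by 0.48, while Slc7a8, detected on 7 arrays, was highest on day 8 (day means 4.80, 5.59, 5.79, 4.95, 4.57 and 4.53). Slc7a4 was highest on day 0 (day means 7.14, 5.70, 5.64, 5.37, 6.17 and 5.84). Slc38a10 fell by 1.36 from day 16 to day 20 on its brightest probe, but a second probe of similar brightness rose by 1.17, and its direction is not settled. Slc66a2 had the narrowest span of the group, with day means from 9.07 to 9.30.

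Family 6, the sodium- and chloride-coupled carriers of neurotransmitters, creatine, taurine and amino acids, had 7 measured genes, all 7 called over the 6 days, as were 84.7% of all genes. Slc6a8, the creatine transporter, had values of 10.09 and 10.24 on day 0, 10.11 and 10.31 on day 4, 10.00 and 10.08 on day 8, 9.91 and 9.78 on day 12, 9.39 and 9.54 on day 16, and 11.89 and 11.79 on day 20. It was lowest on day 16, and both day 20 arrays lay above every other array. The day 20 rise was 5.19-fold (2.37 ± 0.09, SE; adjusted p = 8.62e-16). Slc6a9, the glycine transporter GlyT1, had peaks on days 12 and 20: it rose by 0.60 from day 8, fell by 1.10 to day 16 and rose by 1.35 to day 20. Slc6a15, a carrier of branched-chain amino acids and proline, was highest on day 12 (day means 6.29, 7.19, 7.24, 8.20, 7.41 and 7.48), with a dimmer second probe of opposite sign between days 0 and 8 (-0.52). Slc6a6, the taurine transporter, fell by 0.71 to day 20 on a bright probe while a dim probe rose by 1.69.

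**Figure D3:**
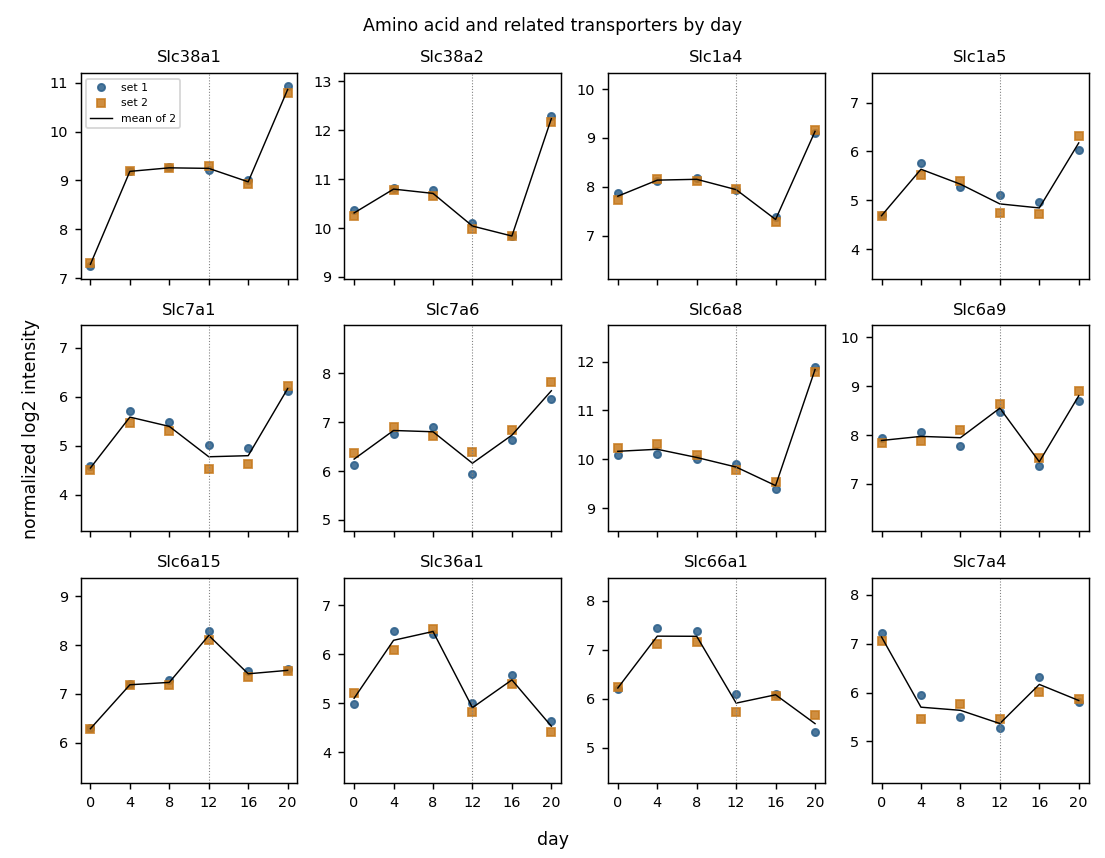
Normalized log2 intensity by day of 12 amino acid and related transporters, with circles for set 1, squares for set 2 and a line through the mean of the 2 arrays. Each panel spans the same number of log2 units and the dotted line marks day 12, the day of the second plating. On the brightest probe of each gene, Slc38a1, Slc38a2, Slc1a4 and Slc6a8 are highest on day 20, and Slc36a1 and Slc66a1 are highest on days 4 and 8.

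The mitochondrial carriers of family 25, which link the matrix to the cytosol, formed the largest group with 39 genes. Over the 6 days 36 were called (92.3%, beside 84.7% of all genes), and from day 16 to day 20 there were 16 higher and 12 lower, beside 29.9% and 35% of all genes. Slc25a10, the dicarboxylate carrier that exchanges malate and succinate for phosphate, had values of 8.86 and 8.79 on day 0, 9.39 and 9.26 on day 4, 9.31 and 9.46 on day 8, 8.25 and 8.36 on day 12, 8.96 and 8.87 on day 16, and 6.14 and 6.02 on day 20. The 2 day 20 arrays lay more than 2 units below every other array. The fall from day 16 was 7.12-fold (-2.83 ± 0.10, SE; adjusted p = 3.01e-16), and Slc25a10 also fell by 1.08 between days 8 and 12.

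Slc25a25, Slc25a42, Slc25a33 and Slc25a36 were highest on day 20. Slc25a25, a calcium-regulated carrier of ATP-magnesium and phosphate, had values of 8.55 and 8.54 on day 0, 7.20 and 7.26 on day 4, 7.21 and 7.06 on day 8, 7.91 and 8.19 on day 12, 7.27 and 7.37 on day 16, and 10.06 and 10.17 on day 20. It was low on days 4, 8 and 16 and 6.96-fold higher on day 20 than on day 16 (2.80 ± 0.11, SE; adjusted p = 2.64e-15). Slc25a42, the carrier of coenzyme A and ADP, had day means of 5.91, 4.99, 4.91, 6.38, 5.29 and 7.86, and was likewise lowest on days 4, 8 and 16. Slc25a34 was too (day means 8.24, 6.97, 7.02, 8.08, 7.72 and 8.88). The groups of 2 arrays did not overlap in any of these steps, but from day 16 to day 20 the same was so for 9209 of all 11470 genes.

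Slc25a33 and Slc25a36, the carriers of pyrimidine nucleotides, both ended highest on day 20. Slc25a33 had values of 7.97 and 7.94 on day 0, 9.19 and 9.11 on day 4, 9.09 and 9.16 on day 8, 8.22 and 8.43 on day 12, 8.13 and 8.03 on day 16, and 10.44 and 10.32 on day 20. It was raised on days 4 and 8, lower again on days 12 and 16, and rose by 2.30 ± 0.09 (SE) to day 20 (adjusted p = 4.47e-15). Slc25a36 instead rose by 1.09 from day 8 to day 12 and stayed high (day means 7.45, 8.11, 8.15, 9.24, 8.92 and 9.63). From day 0 to day 8 its brightest probe gave 0.70 and a dimmer probe -0.65. The mean of its detected probes fell in that step, so its direction there is not settled.

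Slc25a5, Slc25a38 and Slc25a32 had their highest means on days 4 and 8. Slc25a5, the ADP/ATP translocase ANT2, rose by 1.06 from 13.12 and 12.98 on day 0 to 14.11 and 14.11 on day 8 and fell by 1.09 from 13.58 and 13.48 on day 16 to 12.48 and 12.39 on day 20. Slc25a38, the glycine carrier that feeds heme synthesis, had values of 8.26 and 8.33 on day 0, 10.14 and 10.03 on day 4, 10.21 and 10.10 on day 8, 8.25 and 8.32 on day 12, 9.06 and 8.96 on day 16, and 8.97 and 8.99 on day 20. It rose 3.63-fold by day 8 (adjusted p = 4.75e-14) and on day 12 did not differ from day 0 by the test (-0.01). Slc25a32, the folate carrier of mitochondria, rose by 1.45 and fell by 0.89 in the same steps. The list of ADP/ATP and phosphate carriers had 6 measured genes, of which 2 were higher and 3 lower on day 8 than on day 0 (29.3% and 33.9% of all genes), and 2 higher and 2 lower on day 20 than on day 16 (29.9% and 35% of all genes).

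The list of mitochondrial carriers of dicarboxylates, citrate, glutamate, aspartate and one-carbon units had 13 measured genes. On day 8, 7 were higher than on day 0 and 3 lower, beside 29.3% and 33.9% of all genes (median 0.56). From day 8 to day 12, 2 were higher and 7 lower, beside 27.2% and 26.2% of all genes (median -0.40). From day 16 to day 20, 2 were higher and 6 lower, beside 29.9% and 35% of all genes (median -0.24, or -0.08 counting undetected genes at their bound). Slc25a13, an aspartate-glutamate carrier, rose by 0.83 and Slc25a15, the ornithine carrier, rose by 0.79 by day 8, whereas Slc25a1, the citrate carrier, fell by 0.89. Slc25a20, the carnitine-acylcarnitine carrier, fell by 0.62 to day 20. Slc25a12 and Slc25a3 had probes that disagreed in sign (1.06 against -0.40 for Slc25a12 from day 8 to day 12, and -0.55 against 0.26 for Slc25a3 from day 16 to day 20). Slc25a47 varied least, from 5.70 to 5.90.

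**Figure D4:**
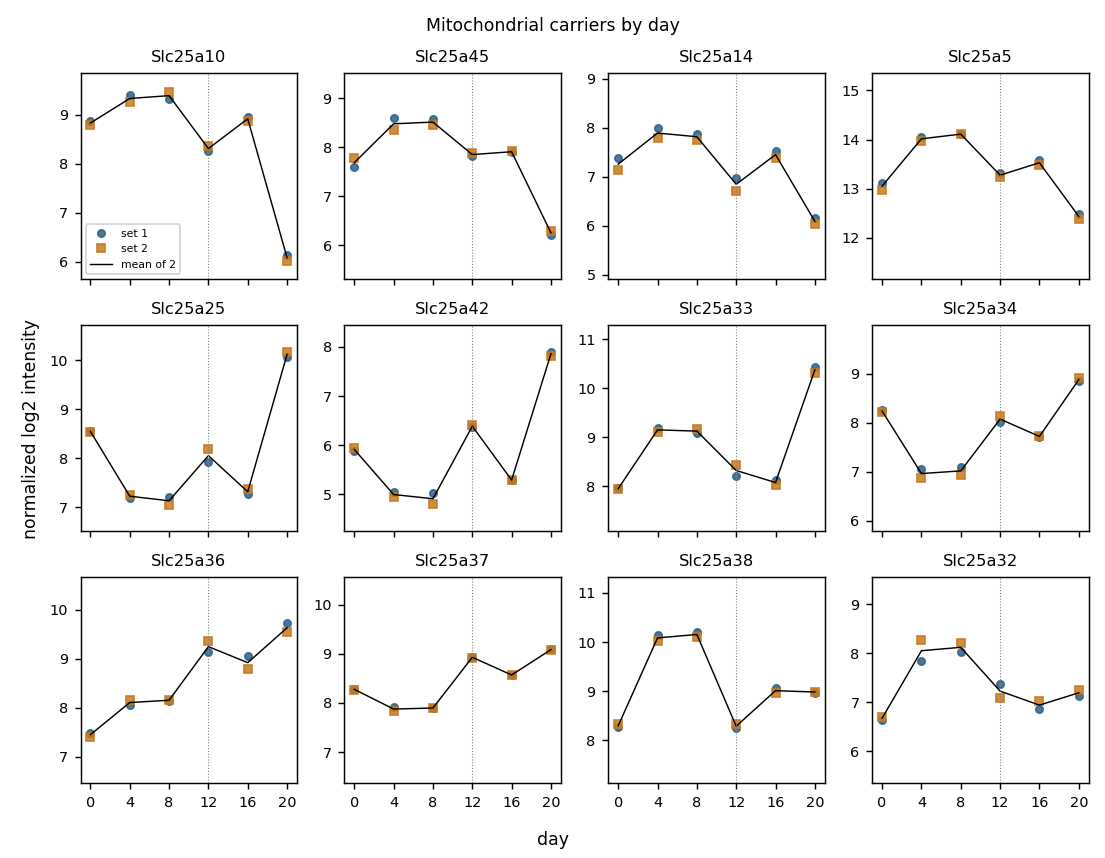
Normalized log2 intensity by day of 12 mitochondrial carriers, with circles for set 1, squares for set 2, a line through the mean of the 2 arrays and a dotted line at the second plating on day 12. Slc25a10 is lowest and Slc25a25, Slc25a42 and Slc25a33 are highest on day 20, while Slc25a5, Slc25a38 and Slc25a32 are highest on days 4 and 8.

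Of 8 metal transporters of families 11, 31, 40 and 41, 7 were called over the 6 days (87.5%, beside 84.7% of all genes). Slc11a1, an iron and manganese transporter of phagosomes and lysosomes best known from macrophages, had values of 10.06 and 10.11 on day 0, 11.71 and 11.67 on day 4, 11.81 and 11.37 on day 8, 11.58 and 11.44 on day 12, 10.22 and 10.08 on day 16, and 13.40 and 13.28 on day 20. It was lowest on days 0 and 16, higher on days 4 to 12 and highest on day 20, 9.11-fold above day 16 (3.19 ± 0.10, SE; adjusted p = 7.49e-17). A second, dim probe moved the same way from day 16 to day 20 but by 0.60. Of the leukocyte markers, Ptprc and Cd3e had probes detected on 0 arrays. Fcer1g ranged from 4.58 to 6.38 and Lyz2 from 4.44 to 5.92, and day 20 minus day 16 was -1.02 and -0.50.

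Slc40a1, ferroportin, the iron exporter of the plasma membrane, had values of 9.21 and 9.14 on day 0, 8.71 and 8.78 on day 4, 8.88 and 8.66 on day 8, 10.64 and 10.57 on day 12, 8.72 and 8.67 on day 16, and 7.82 and 7.76 on day 20. Day 12 stood alone at the top. Slc40a1 rose by 1.83 ± 0.09 (SE) from day 8 to day 12 (adjusted p = 6.82e-13) and fell by 1.91 ± 0.09 (SE) to day 16 (adjusted p = 5.19e-13). Slc11a2, the iron importer DMT1, was highest on day 16 and lowest on day 20 (day means 9.98, 10.25, 10.15, 9.74, 10.64 and 8.90) and fell 3.32-fold between them. The copper carrier Slc31a1 was lower on days 4, 8 and 12 than on day 0 and day 16 (day means 11.08, 10.24, 10.30, 10.19, 10.69 and 10.85), and Slc31a2 rose by 1.48 to day 16 and fell by 1.39 to day 20.

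In the list of copper, iron and manganese transporters all 7 measured genes were called over the 6 days, as were 84.7% of all genes. From day 12 to day 16, 3 were higher and 4 lower (20.7% and 19.7% of all genes), and from day 16 to day 20, 3 were higher and 3 lower (29.9% and 35% of all genes). The iron importers of mitochondria, Slc25a37 and Slc25a28, rose by 0.52 and 1.18 respectively to day 20. Slc48a1, the heme exporter of endosomes and lysosomes, fell by 1.11 from day 12 to day 16 and rose by 1.27 to day 20. Slc41a3, a magnesium transporter, fell by 1.78 from a mean of 7.92 on day 0 to 6.14 on day 8, rose by 1.47 to day 12 and reached 8.48 and 8.61 on day 20.

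Zinc transporters came in exporters of family 30, which move zinc out of the cytosol, and importers of family 39, which move it in. All 7 measured exporters were called from day 16 to day 20, a step in which 65% of all genes were (29.9% higher and 35% lower). Of the exporters 5 were higher and 2 lower (median 0.53, or 0.42 counting undetected genes at their bound). Of 11 importers 3 were higher and 1 lower (median -0.14, or -0.11 counted the same way). Slc30a1, the exporter of the plasma membrane, read 7.02 and 6.95 on day 0, 7.34 and 7.42 on day 4, 7.38 and 7.29 on day 8, 7.28 and 7.37 on day 12, 6.57 and 6.31 on day 16, and 8.17 and 8.19 on day 20. It was lowest on day 16 and 3.34-fold higher on day 20 (adjusted p = 3.89e-11). Slc30a5 and Slc30a7, which load zinc into the secretory pathway, rose by 0.73 and 0.84 respectively, and Slc30a4 rose by 0.42 (adjusted p = 0.0483, and 0.0303 to 0.499 over the alternative settings). Slc30a8 was at least 1.3-fold higher on day 20. Slc30a6 fell by 0.44, as did Slc30a9 on its brightest probe (-0.72), with a second probe detected on 2 arrays at 0.54.

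Among the importers, Slc39a6 was highest on days 4 and 8, with 10.13 and 10.04 on day 0, 11.45 and 11.41 on day 8 and 10.60 and 10.47 on day 20. It rose by 1.35 ± 0.08 (SE) by day 8 (adjusted p = 1.87e-12). Slc39a9, Slc39a11 and Slc39a13 rose by 1.21, 0.95 and 0.48 from day 16 to day 20, and Slc39a3 fell by 0.93. Slc39a10 fell by 0.68 from day 12 to day 16, and Slc39a7, which releases zinc from the endoplasmic reticulum, fell by 0.38. Slc39a1 had its highest mean on day 0 (6.71), and Slc39a4, Slc39a5 and Slc39a14 were dim, on 9, 2 and 5 arrays. Slc39a8 was annotated with probes detected on 0 arrays.

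**Figure D5:**
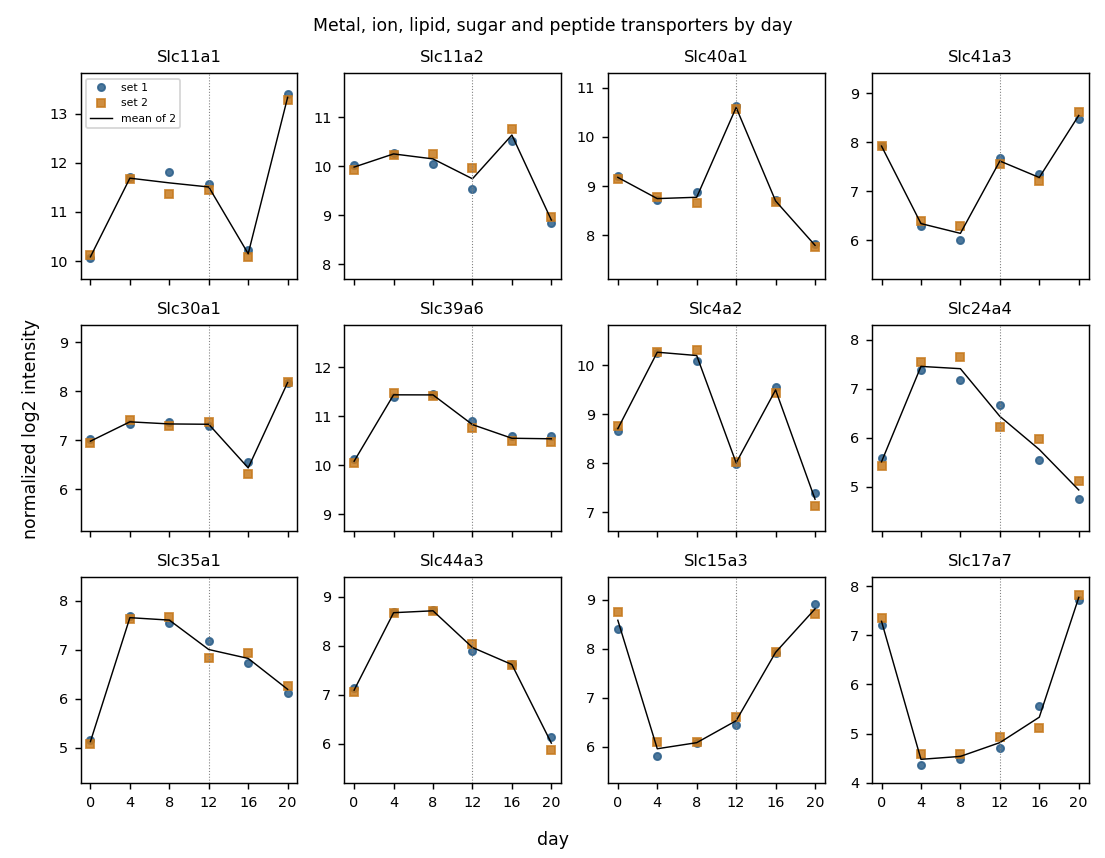
Normalized log2 intensity by day of 12 transporters of metals, ions, choline, nucleotide sugars, peptides and glutamate, with circles for set 1, squares for set 2, a line through the mean of the 2 arrays and a dotted line at the second plating on day 12. Slc40a1 peaks on day 12, Slc11a1 is highest on day 20, and Slc35a1 is lowest on day 0. Slc15a3 and Slc17a7 are low on days 4, 8 and 12, and Slc17a7 also on day 16.

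In the list of glucose and lactate transporters 8 genes were measured, and 1 was higher and 6 lower on day 20 than on day 16, beside 29.9% and 35% of all genes (median -0.46, beside -0.05 for all genes). Slc16a3, the lactate exporter MCT4, had values of 7.29 and 7.43 on day 0, 5.25 and 5.24 on day 4, 5.29 and 5.60 on day 8, 5.63 and 5.69 on day 12, 6.44 and 6.25 on day 16, and 5.08 and 4.82 on day 20. Both day 0 arrays were the highest, day 16 came next, and day 20 was the lowest. Slc16a3 fell by 1.91 ± 0.16 (SE) from day 0 to day 8 (adjusted p = 8.46e-10) and fell by 1.39 ± 0.16 (SE) from day 16 to day 20 (adjusted p = 9.89e-08). Slc16a1 and Slc16a7, other lactate carriers, had probes detected on 0 arrays.

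The glucose carrier Slc2a3 rose by 0.82 by day 8 and fell by 0.44 to day 20, whereas Slc2a8, an intracellular hexose carrier, fell by 1.54 by day 8 and rose by 0.79 to day 20. Slc2a6, another intracellular glucose carrier, was lowest on day 12 (9.34 and 9.34) and rose by 1.28 to day 16. Slc2a4, the insulin-responsive glucose carrier, and Slc2a5, the fructose carrier, fell by 0.48 and 0.59 respectively to day 20, and Slc2a9 fell by 0.44. Slc16a6 was the 1 gene of the list not called in that step. Family 37 includes exchangers of glucose 6-phosphate and phosphate. Of its genes, Slc37a1, Slc37a2 and Slc37a3 all rose from day 0 to day 8 (by 1.30, 1.32 and 1.31), and Slc37a4, of the endoplasmic reticulum, fell by 0.80.

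The 5 measured nucleotide sugar carriers of family 35a, which supply the Golgi apparatus for glycosylation, were all called from day 0 to day 8, 4 higher and 1 lower, beside 63.1% of all genes called, 29.3% higher and 33.9% lower. Slc35a1, the carrier of CMP-sialic acid, had values of 5.17 and 5.09 on day 0, 7.68 and 7.62 on day 4, 7.55 and 7.66 on day 8, 7.19 and 6.82 on day 12, 6.72 and 6.93 on day 16, and 6.12 and 6.27 on day 20. Day 0 lay well below the other days, which declined from day 8 to day 20 without reaching it. The rise to day 8 was 5.56-fold (2.48 ± 0.14, SE; adjusted p = 2.47e-12). Slc35a3, the carrier of UDP-N-acetylglucosamine, rose by 1.85, and Slc35a2, that of UDP-galactose, rose by 0.30 and then fell by 1.52 from day 16 to day 20. Slc35a4 rose by 0.52 and Slc35a5 fell by 0.52 by day 8.

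Among lipid and choline carriers, Slc44a3 of the choline transporter-like family had values of 7.13 and 7.06 on day 0, 8.68 and 8.66 on day 4, 8.72 and 8.70 on day 8, 7.89 and 8.04 on day 12, 7.62 and 7.61 on day 16, and 6.14 and 5.88 on day 20. It peaked on days 4 and 8 and was lowest on day 20, after a fall of 1.60 ± 0.11 (SE) from day 16 (adjusted p = 5.11e-11). Slc44a1, the choline carrier itself, had 1 dim probe that opposed the brightest one from day 16 to day 20 (0.69 against -0.73). For Slc44a2 the brightest probe fell by 1.14 from day 0 to day 8 while 2 dimmer probes rose by 0.57 and 0.66. Slc33a1, the acetyl-CoA carrier of the endoplasmic reticulum, was not detected on day 0 and at least 1.77-fold higher on day 8. Of the fatty acid transport proteins, Slc27a1 fell by 0.93 by day 8, Slc27a4 fell by 0.81 between days 8 and 12, and Slc27a3 rose by 0.76 to day 20.

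Among acid and anion exchangers, Slc4a2, the chloride-bicarbonate exchanger AE2, changed direction at each harvest after day 8. Its values were 8.66 and 8.75 on day 0, 10.25 and 10.28 on day 4, 10.09 and 10.30 on day 8, 7.99 and 8.03 on day 12, 9.55 and 9.44 on day 16, and 7.40 and 7.13 on day 20. Days 4, 8 and 16 were high and days 0, 12 and 20 low, with no overlap between neighbouring harvests other than days 4 and 8. In each of those steps 7696 to 9241 of all 11470 genes did not overlap either. Slc4a2 fell by 2.19 ± 0.10 (SE) from day 8 to day 12 (adjusted p = 1.9e-13), rose by 1.49 ± 0.10 (SE) to day 16 (adjusted p = 1.79e-10) and fell by 2.23 ± 0.10 (SE) to day 20 (adjusted p = 2.37e-14). Slc4a3, a related exchanger, was highest on day 0 and fell by 1.69 by day 8. Slc4a4, a sodium-bicarbonate cotransporter, fell by 1.53 from day 12 to day 16. Of the sodium-proton exchangers, Slc9a8 rose by 1.22 by day 8 and rose by 1.09 to day 20, and Slc9a9 was at least 2.04-fold lower on day 20 than on day 16.

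Cation-chloride cotransporters numbered 7, of which 6 were called over the 6 days, beside 84.7% of all genes. Slc12a8 fell by 1.94 from 6.95 and 6.98 on day 12 to 5.01 and 5.04 on day 16. Slc12a2, the sodium-potassium-chloride cotransporter NKCC1, and Slc12a7, a potassium-chloride cotransporter, rose by 0.69 and 1.22 respectively to day 20, and Slc12a9 fell by 1.08. Slc24a4, a potassium-dependent sodium-calcium exchanger whose human counterpart lies at a locus associated with hair and eye colour, had values of 5.59 and 5.43 on day 0, 7.37 and 7.54 on day 4, 7.18 and 7.64 on day 8, 6.66 and 6.21 on day 12, 5.55 and 5.97 on day 16, and 4.76 and 5.12 on day 20. It was high on days 4 and 8, intermediate on day 12 and low on days 0, 16 and 20, and rose by 1.90 ± 0.19 (SE) by day 8 (adjusted p = 1.81e-08).

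Slc15a3 and Slc17a7 were low on the days labelled pigmented, and Slc17a7 was also low on day 16, labelled depigmented. Slc15a3, a proton-coupled carrier of histidine and peptides in lysosomes, had values of 8.41 and 8.76 on day 0, 5.82 and 6.11 on day 4, 6.08 and 6.09 on day 8, 6.45 and 6.62 on day 12, 7.91 and 7.94 on day 16, and 8.92 and 8.71 on day 20. All 6 arrays labelled pigmented lay below all 6 labelled depigmented, although day 16 was below days 0 and 20. It fell 5.64-fold by day 8 (-2.50 ± 0.14, SE; adjusted p = 1.16e-12) and rose by 1.39 to day 16. Slc15a4, its close relative, rose by 0.61 from day 12 to day 16, and Slc15a2, a peptide carrier of the plasma membrane, fell by 1.12 between days 8 and 12 and rose by 1.32 to day 16.

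Slc17a7, the vesicular glutamate transporter best known from neurons, had values of 7.22 and 7.36 on day 0, 4.37 and 4.58 on day 4, 4.48 and 4.59 on day 8, 4.71 and 4.92 on day 12, 5.56 and 5.11 on day 16, and 7.73 and 7.82 on day 20. It was clearly above background on days 0 and 20, and 0 of the 4 arrays of days 4 and 8 detected it. Day 8 was at least 5.27-fold lower than day 0 (adjusted p = 5.81e-12), and Slc17a7 rose by 2.44 ± 0.17 (SE) from day 16 to day 20 (adjusted p = 3.37e-11). Slc17a9, the vesicular nucleotide transporter, was at least 1.68-fold lower on day 8 than on day 0 and at least 1.73-fold higher on day 20 than on day 16. In the list of lysosomal and vesicular transporters 12 genes were measured. Of these, 3 were higher and 5 lower on day 8 than on day 0 (29.3% and 33.9% of all genes). From day 16 to day 20, 7 were higher and 4 lower (29.9% and 35% of all genes; median 0.36).

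Of 10 nucleoside and vitamin carriers, 9 were called over the 6 days, beside 84.7% of all genes. Slc19a1, the reduced folate carrier, stayed between 7.68 and 8.05 on the first 10 arrays and read 9.38 and 9.37 on day 20, a rise of 1.69 ± 0.10 (SE; adjusted p = 2.48e-12). Slc19a2, the thiamine carrier, was highest on day 12 and fell by 1.63 to day 16. Slc46a3, a lysosomal carrier, was high on day 0 (9.89 and 9.75), low on day 8 (8.07 and 8.02) and rose by 1.05 to day 12. Slc29a1 and Slc29a3, nucleoside carriers of the plasma membrane and of lysosomes, fell by 0.72 and 0.57 by day 8, but a dim probe of Slc29a1 rose by 1.24. In the list of nucleoside, folate and thiamine transporters (6 measured), 1 gene was higher and 4 lower on day 8 than on day 0 (29.3% and 33.9% of all genes), and 3 were higher and 0 lower on day 20 than on day 16 (29.9% and 35% of all genes). The folate carrier Slc46a1 was not among those 3 (-0.32), and neither was Slc29a2.

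The phosphate carriers Slc20a1 and Slc20a2 were both higher on day 20 than on day 16. Slc20a2 was not detected on day 16 and was at least 3.79-fold higher on day 20, and Slc20a1 rose by 1.07, having also risen by 1.08 from day 0 to day 8 and fallen by 1.33 to day 12. Slc5a10, a sodium-coupled carrier of mannose and fructose known from kidney, read 6.10 and 6.51 on day 8, 7.97 and 8.23 on day 12 and 6.30 and 5.84 on day 16. It rose by 1.80 ± 0.18 (SE) and then fell by 2.03 ± 0.18 (SE) (adjusted p = 2.69e-08 and 1.08e-08). Slc5a6, the biotin and pantothenate carrier, rose by 1.34 to day 20.

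Of 10 organic ion carriers, 4 were higher and 1 lower on day 20 than on day 16, beside 29.9% and 35% of all genes. Slc47a1, an exporter of organic cations, was not detected on day 16 and was at least 4.12-fold higher on day 20 (adjusted p = 1.61e-11), with 6.87 and 6.90 on its 2 arrays. The carnitine carriers Slc22a5 and Slc22a21 rose by 0.91 and 1.65 respectively in that step. Slc22a18 was highest on day 12 on its brightest probe and fell by 1.12 to day 16. With the mean of its probes, its change from day 8 to day 12 was reversed.

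Of the 5 genes that match the symbol pattern and encode no transporter, Slc9a3r2, a scaffold that binds the tails of membrane transporters, fell by 2.16 by day 8 and rose by 1.79 to day 12. Its relative Slc9a3r1 rose by 0.99 to day 16 and fell by 1.23 to day 20. Leaving these 5 out would lower the count called over the 6 days by 4.

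In the comparison by pigment label the spread between days of 1 label counts as error. The fit takes the 6 arrays of a label as independent, although the 2 arrays of a day are not, so its SE and p-values are likely too small. Of the 199 genes, 37 were called (background 16.9%), 18 higher (7.73%) and 19 lower (9.16%) in the 6 arrays labelled pigmented, with 6 higher and 6 lower by at least 2-fold (both directions 5.87%). Median centring gave 22 higher and 9 lower. Large differences were those of Slc24a4 (1.70 ± 0.27, SE; adjusted p = 0.00165), Slc44a3 (1.54 ± 0.31; adjusted p = 0.00686), Slc12a8 (1.45 ± 0.20; adjusted p = 0.000725) and Slc15a3 (-2.25 ± 0.22; adjusted p = 2.64e-05). Slc17a7 was also lower (adjusted p = 0.00563), but it was detected on 1 of the 6 arrays labelled pigmented, so no size is given. In all 5 the 6 arrays of 1 label lay wholly above the 6 of the other. These 5 were picked for large differences in this same comparison, and the share of all genes separated in this way was not counted. With day as a random block, at a correlation of 0.89 between the arrays of a day, 6 genes (3.02%, against 2.71% of all genes) were called: Slc15a3, Slc17a7, Slc46a3, Slc39a6, Slc12a8 and Slc44a3. Slc24a4 was not called in that fit. Leaving out 1 array of day 0, day 4 or day 8 in the comparison without the block gave 21 to 24 genes. Without the block 65 of the 199 genes had an unadjusted p under 0.05, and with it 34 did (1993 of all 11470 genes).

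Promoter windows from RefSeq (GRCm38.p6, 250 bases before to 50 after each annotated start) were matched by gene identifier for 153 of the 199 genes, with 209 windows. The other 46 genes, among them Slc38a1 and Slc6a8, had no window and were not searched. CACGTG, the E-box bound by several basic helix-loop-helix factors and its own reverse complement, was in 13.9% of these windows and in 7.15% of all 32851 windows. The 32851 windows were not limited to genes detected on these arrays, as the 199 genes were. They are therefore not a like set, and a difference in share cannot be assigned to solute carrier genes. It was in 27.3% of the 22 windows of genes that rose at least 2-fold from day 0 to day 8, in 4.76% of the 21 windows of genes that fell as much, and in 18.8% and 21.1% of the windows of genes that rose or fell at least 2-fold from day 16 to day 20. TGATGNAA on either strand, the form of composite site known for ATF4 with C/EBP factors, was in 3.83% of the windows of these genes and in 3.97% of all, and TCATGTG on either strand, a form of the site known for MITF, in 1.91% and 3.77%. A match describes letters only. The 6 genes whose fitted rise by day 8 was at least 2-fold and that hold CACGTG are shown, since their starts can be compared. The motif at the given position is in capitals with 30 bases on each side, 5′ to 3′ on the strand of the gene. Of the 6, Slc33a1 was not detected on day 0, and its bound given above is under 2-fold. Positions are counted from the annotated start, the base before it being -1.
Slc24a4, chr12:102128604-102128669, plus strand, first motif base at -93: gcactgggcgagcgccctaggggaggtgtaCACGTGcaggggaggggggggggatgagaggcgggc
Slc36a1, chr11:55204279-55204344, plus strand, first motif base at -31: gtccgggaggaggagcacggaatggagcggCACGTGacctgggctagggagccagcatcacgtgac
Slc37a3, chr6:39377685-39377750, minus strand, first motif base at -13: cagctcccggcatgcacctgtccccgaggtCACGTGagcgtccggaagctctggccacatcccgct
Slc33a1, chr3:63964823-63964888, minus strand, first motif base at -125: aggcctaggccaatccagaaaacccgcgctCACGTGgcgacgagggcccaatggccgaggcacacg
Slc25a33, chr4:149774240-149774305, minus strand, first motif base at -8: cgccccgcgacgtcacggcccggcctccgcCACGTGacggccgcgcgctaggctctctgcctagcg
Slc20a1, chr2:129198721-129198786, plus strand, first motif base at -22: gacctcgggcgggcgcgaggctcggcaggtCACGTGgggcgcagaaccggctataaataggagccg
Slc36a1 and Slc20a1 each hold a second CACGTG in the window, and that of Slc36a1, at -3, lies in the printed stretch in small letters. Of these 6 genes, Slc24a4 and Slc36a1 were lower on day 20 than on day 16, Slc25a33 and Slc20a1 were higher, and Slc33a1 and Slc37a3 were not called (-0.04 and 0.27).

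TGATGNAA was in 3.12% of the 32 windows of genes that rose at least 2-fold from day 16 to day 20. Of the amino acid transporters higher on day 20 that have a window, Slc1a4 and Slc7a7 hold it, in capitals here, Slc1a4 as its reverse complement.
Slc1a4, chr11:20332680-20332747, minus strand, first motif base at -4: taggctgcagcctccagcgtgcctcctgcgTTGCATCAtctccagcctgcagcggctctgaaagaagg
Slc7a7, chr14:54417908-54417975, minus strand, first motif base at -1: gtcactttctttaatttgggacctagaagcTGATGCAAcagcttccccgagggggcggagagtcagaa
Slc7a7, chr14:54418048-54418115, minus strand, first motif base at -141: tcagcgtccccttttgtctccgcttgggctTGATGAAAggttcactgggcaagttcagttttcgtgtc
Slc38a2 has none of the 3 motifs in its windows.

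For 65 of the 199 genes more than 1 probe was detected. From day 16 to day 20, 67 other probes belonged to called genes, and 15 of them had the opposite sign to the brightest probe, 7 by at least 0.5. From day 0 to day 8 these numbers were 79, 25 and 8. Of the 123 annotated genes that were not kept, 22 had a probe detected on 1 array and 101 on none. Of the 199 that were kept, 130 were detected on all 12 arrays by the probe used and 17 on exactly 2, so that the values of the latter lie near the detection limit.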

How the data were processed

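The labels describe total RNA of B16 cells on Illumina mouse bead arrays. The authors deposited non-normalized probe intensities with a detection p-value for each probe and array, per the file headers. The software that made them is not given in the sources used here. A table of processed intensities, deposited by the authors, served as an alternative. Its columns are linear transforms of the non-normalized ones on a linear scale, share a mean of 281 and have medians of 6.26 to 8.71, and the set numbers of days 4, 12 and 20 are exchanged between the tables.

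Intensities were background-corrected with the background inferred from the detection p-values, given an offset of 16, quantile normalized and put on the log2 scale (neqc, limma 3.58.1, R 4.3.3). Of 45281 probes, 34885 carry 1 gene symbol, 18 several and 10378 none, and 22978 were detected (p under 0.05) on at least 2 arrays. Each of 11470 genes was read from its brightest detected probe. Day was fitted as a factor over all 12 arrays with limma's moderated test (intensity trend), adjusted over all 11470 genes by Benjamini-Hochberg at 0.05. The pigment labels were compared in a model of their own. The fit was tested on simulated data. The number of arrays limits the precision.

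The solute carrier genes, their substrate groups and the gene lists were chosen with earlier results of these data known, and the placing of families 49 and 66 and of Slc4a1ap and Slc2a4rg-ps was settled after the files were read. Named genes are the 6 largest called rises and the 6 largest called falls of a comparison whose arrays do not overlap, the 3 genes of widest and the 1 of narrowest range in each substrate group, and the members of the lists and of small families. Further genes, named for their role or for disagreeing probes, were chosen after their values were seen. The set numbers were checked for pairing: 8 of 15 day pairs had correlated deviations above 0.1 (-0.029 to 0.267), and the day 4, 12 and 20 numbers differ between the tables. By the series' text a set is a culture cycle, so blocked fits were run with both numberings as alternatives. Alternatives were no background correction, median centring, the mean of a gene's probes, another detection filter, the deposited processed table, blocks, the density label as a term and leaving out arrays.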

Additional observations from a re-analysis of the deposited data

How the results depend on the processing

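Of the counts of called solute carrier genes, median centring moved day 16 minus day 12 from 89 to 53, and day as a random block moved pigmented minus depigmented from 37 to 6. The cause was not tested. Leaving out 1 array at a time gave 155 to 161 genes over the 6 days, 116 to 132 for day 4, 114 to 130 for day 8, 82 to 100 for day 12, 74 to 96 for day 16 and 125 to 133 for day 20 against day 0. It gave 0 for day 8 minus day 4, 83 to 97 for day 12 minus day 8, 61 to 90 for day 16 minus day 12, 111 to 123 for day 20 minus day 16 and 21 to 43 for pigmented minus depigmented. This last count fell to 23 and 24 without replicate 1 or 2 of day 0, to 22 and 21 without those of day 4, and to 23 and 21 without those of day 8. Where a day keeps 1 array, that array is taken to vary like the others.

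With the set number as a replicate block the counts were 164 over the 6 days, 133, 132, 103, 99 and 137 for days 4, 8, 12, 16 and 20 against day 0, 0 for day 8 minus day 4, 101, 93 and 126 for the later steps and 30 for the pigment labels. With the set numbers of the processed table as the block they were 159, then 127, 129, 97, 93 and 131, then 0, then 97, 82 and 119, and 30. Of 385 called changes of named genes the blocks ended 1 and 10.

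Of these 385 changes, 331 kept their call and direction under median centring, 354 with the processed table and 352 with the mean of a gene's probes. With the density label as a term 357 of the 385 did. Of 4620 such values with 1 array left out, 4417 did. The mean of the probes reversed 8 of the 385 and 3 changes that were not called (Slc16a6, Slc25a12 and Slc37a3 from day 16 to day 20). They were, from day 0 to day 8, Slc23a2 (-0.11), Slc25a36 (-0.093), Slc29a1 (0.26) and Slc44a2 (0.030), from day 8 to day 12, Slc22a18 (-0.039) and Slc25a12 (0.33), from day 12 to day 16, Slc38a2 (0.20), and from day 16 to day 20, Slc16a6 (-0.29), Slc25a12 (0.26), Slc25a3 (-0.14) and Slc37a3 (-0.42). Median centring reversed Slc25a3 from day 16 to day 20 (-0.077). Genes detected on few arrays lie near the background, where a change is understated or known only as a bound.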

Other observations

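Transport genes outside the symbol pattern and partner subunits of transporters were listed for comparison. Of 20 measured, 19 were called over the 6 days, beside 84.7% of all genes. On day 8, 9 were higher and 6 lower than on day 0 (29.3% and 33.9% of all genes), and on day 20, 7 were higher and 5 lower than on day 16 (29.9% and 35% of all genes). Bsg, the chaperone subunit of the lactate carriers MCT1 and MCT4, read 5.26 and 5.25 on day 16 and 8.62 and 8.49 on day 20 (adjusted p = 1.02e-13), a step in which the lactate exporter Slc16a3 fell by 1.39. Mfsd11, of the major facilitator superfamily, rose by 2.59 from day 0 to day 8, with 6.45 and 6.48 on day 0 and 9.13 and 8.99 on day 8. Mfsd1, a lysosomal transporter, fell by 2.21 from day 16 to day 20, to 7.55 and 7.37. Flvcr1, a heme and choline transporter of the plasma membrane, and Ank, a pyrophosphate and ATP exporter, rose by 1.44 and 1.56 in that step. Cln3, the lysosomal membrane protein of Batten disease, rose by 0.94 from day 0 to day 8 and fell by 1.63 to day 12.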
